A study of Mus musculus with 24 samples.

Results

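The comparison described here sets clone 2 of the LncMyoD knockout against the wild type line after both were infected with MyoD adenovirus, and asks how complete the skeletal muscle programme became in each line. C3H 10T1/2 is an established mouse embryonic fibroblast line of the C3H strain that turns into muscle when it is given the transcription factor MyoD. LncMyoD is a long noncoding RNA whose gene lies close to that of MyoD, and clone 2 is a single cell clone labelled LncMyoD-KO, so that a property of the clone and a property of the knockout cannot be told apart. Members were chosen by their labels: 4 libraries of clone 2 and 4 of wild type, 8 of 24 libraries in all. In each line, 2 libraries came from cells given MyoD adenovirus alone and 2 from cells given MyoD adenovirus and the LncMyoD plasmid. The cells were grown in medium with 10% fetal bovine serum and moved to 2% HS after MyoD-induced conversion. No group had an empty virus or an empty plasmid, and no age or time after infection was given. The labels number the replicates but do not say that they were separate cultures, so that p-values measure the spread between these libraries, which may be technical.

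MyoD is a basic helix-loop-helix factor that pairs with E proteins such as Tcf12 and binds E-box sequences in muscle genes. It switches on myogenin (Myog) and Mef2 factors, and these together turn on the actins, myosins and troponins of the sarcomere, the membrane proteins that let myoblasts fuse, the acetylcholine receptor of the nerve junction and the enzymes that supply ATP to contraction. Full conversion of a fibroblast also involves leaving the cell cycle and giving up the matrix-producing state.

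The libraries of the 2 lines differed as a whole, and every result below sits on that difference. Over the 8 libraries, 4.82 to 5.79 gigabases per library were aligned in wild type and 3.49 to 4.68 in clone 2. The ribosomal RNA repeat on chromosome 17 took 60.7 to 66.0% of all transcript abundance in wild type and 5.62 to 7.90% in clone 2, which left 1.52 to 1.87 gigabases on other transcripts in wild type against 2.93 to 3.77 in clone 2. Mitochondrial transcripts took 2.58 to 3.10% in wild type and 9.34 to 13.96% in clone 2. The unit is TPM, the share of a transcript in its library per unit of transcript length, divided here by a scale factor for each library (scaled TPM). The factors were 0.282 to 0.397 in wild type and 2.64 to 3.18 in clone 2. On average the factors of the 2 lines stood 3.13 apart on the log2 scale. Without the scaling, genes in clone 2 would move up against wild type by nearly that much, and by less at low levels. Each difference below is therefore relative to the middle of the genes found in all 8 libraries. Log2 expression correlated at 0.834 to 0.912 between replicates and at 0.311 to 0.340 between lines, across the tested genes, which are not independent replicates. At the LncMyoD gene a spliced minus-strand transcript (mm10, chromosome 7, 46345772 to 46351188), in the position of the lincRNA 1700025L06Rik, was assembled in 2 of 2 wild type and 2 of 2 clone 2 libraries given MyoD and plasmid. It was assembled in 0 of the 4 given MyoD alone, wild type included, so it checks the plasmid label and not the knockout.

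Among 9168 genes that reached 1 scaled TPM in at least 4 of the 8 libraries, 3218 (35.1%) were higher in clone 2 and 2444 (26.7%) lower, 61.8% in all, by limma at a Benjamini-Hochberg adjusted p under 0.05 and a log2 difference of at least 1. The median difference over all of them was 0.41, and the 4 libraries of one line lay clear of the 4 of the other for 60.9%. Of 150 muscle genes in 9 lists, 56 passed the filter, 16 were called higher and 17 lower. The 16 fell to 10 when either clone 2 replicate with MyoD alone was left out, by construction in part, since fewer genes then reach the level in 4 libraries. The share called higher was therefore below that of all genes and the share called lower slightly above it, and a count of this kind sets nothing apart. Of the 16, 5 (Ckm, Mymx, Rapsn, Tnni2 and Trim54) were under 1 scaled TPM in every wild type library and passed the filter through clone 2 alone, so they had to differ, and 3 of the 17 (Chrnb1, Ldb3 and Six4) passed through wild type alone. Members of one list often went both ways, as the plot of list members shows.

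**Figure D1:**
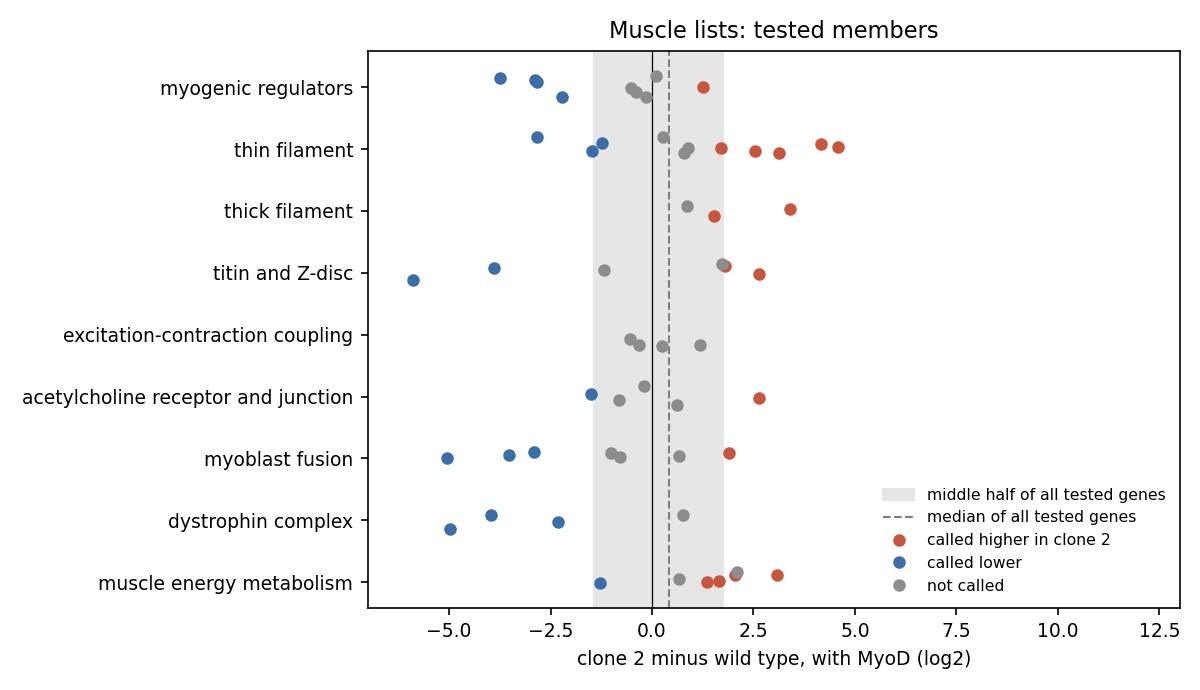
Log2 difference, clone 2 minus wild type with MyoD, of each tested member of the 9 muscle lists (1 point per gene, 4 against 4 libraries), in red where called higher, blue where called lower and grey where not called. The grey band spans the lower to the upper quartile of the 9168 tested genes and the dashed line their median of 0.41. Thin filament members spread to both sides, the dystrophin complex lies mostly on the lower side and no calcium handling member was called.

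Among the regulators, MyoD RNA itself was far lower in clone 2. Myod1 (ENSMUSG00000009471.4, chromosome 7, 46376474 to 46379099) stood at 9742, 9399, 10361 and 12989 scaled TPM in the wild type libraries and at 405, 352, 383 and 385 in clone 2. The groups did not overlap, and the log2 difference was -4.79 (SE 0.12, adjusted p = 2.4e-07 by limma). The values do not separate transcripts of the virus from those of the cell's own gene. Part of the gap was also present in libraries without the virus. The Myod1 difference with MyoD minus that without was -1.66 (SE 0.19, adjusted p = 0.00021 by limma), and 0.27 at a pseudocount of 0.1. Myogenin, the factor that commits myoblasts to differentiate, went the other way: Myog (ENSMUSG00000026459.5) was at 13.8, 9.60, 11.9 and 8.59 in wild type and at 33.2, 16.6, 26.9 and 37.8 in clone 2. It was higher by 1.27 (SE 0.29, adjusted p = 0.0052 by limma) and the groups did not overlap. With length taken into account, as described further on, that difference was 0.005.

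Smyd1, a muscle histone methyltransferase needed for sarcomere assembly, was lower in clone 2 by 3.75 (SE 0.46, adjusted p = 0.00020 by limma). Its levels were 12.9, 10.9, 18.6 and 35.5 scaled TPM in wild type and 1.32, 0, 0.552 and 0 in clone 2. Every wild type library was above every clone 2 library. Tcf12, an E protein partner of MyoD, fell by 2.89 and Mef2d, a Mef2 family activator, by 2.83, both with groups that did not overlap. Length-adjusted, Mef2d was at -1.60 and no longer called (adjusted p = 0.064 by limma) and Tcf12 at -1.47, and Tcf12 was at -1.25 with unnamed transcripts placed. Of the 21 regulators in the list, which leaves out Myod1 itself, 9 were tested, 1 was called higher and 4 lower, with a median difference of -0.51. Mef2c, another Mef2 factor, did not pass the filter and was at 0.0240 to 0.957 in wild type and 0.468 to 2.43 in clone 2.

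The fusion genes were split. Mymk (myomaker), the membrane protein that makes myoblasts able to fuse, was at 12.7, 6.37, 23.9 and 17.5 scaled TPM in wild type and at 8.05, 2.44, 7.27 and 10.3 in clone 2, and the groups overlapped. Its difference of -0.998 (SE 0.37, adjusted p = 0.045 by limma) missed the size threshold, and it turned to 1.79 without scaling. Mymx (myomixer), the small peptide that completes fusion, was listed at 0 in 4 of 4 wild type libraries and stood at 3.94, 1.51, 2.76 and 3.16 in clone 2, so no fold is given. The other 3 called proteins of the surface of the list were lower in clone 2. Itga7, the laminin receptor of muscle, fell by 2.92, the adhesion molecule Kirrel by 5.04 and the membrane remodelling protein Ehd2 by 3.53. For Itga7 the wild type values were 7.55, 6.43, 18.5 and 12.4 and the clone 2 values 0.761, 0.0005, 0.0008 and 1.90. The clone 2 values of Itga7 were 2.54 to 7.32 once unnamed transcripts were placed, and the differences were -1.18 for Itga7, -2.61 for Kirrel and -2.82 for Ehd2. In all, 7 of 15 fusion genes were tested, 1 was called higher and 3 lower.

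**Figure D2:**
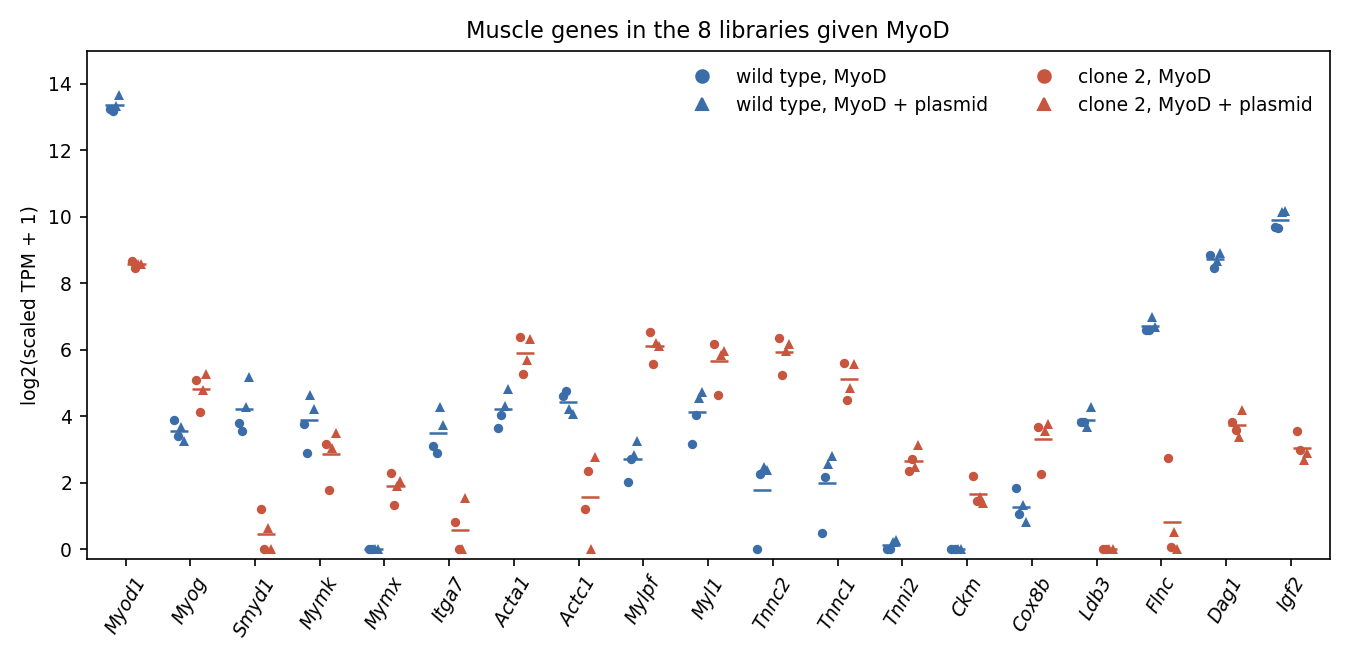
Level of 18 muscle genes and Igf2 as log2(scaled TPM + 1) in each of the 8 libraries (circles, MyoD alone; triangles, MyoD and plasmid; bars, means of 4). Troponin and light chain genes of clone 2 (red) lie above those of wild type (blue), while Myod1, Smyd1, Itga7, Actc1, Ldb3, Flnc, Dag1 and Igf2 lie below.

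Mylpf (ENSMUSG00000030672.12), the fast regulatory myosin light chain, was at 3.09, 5.54, 6.18 and 8.60 scaled TPM in wild type and at 91.1, 46.9, 73.5 and 68.5 in clone 2. The lowest clone 2 library was above the highest wild type library, and the log2 difference was 3.40 (SE 0.28, adjusted p = 2.6e-05 by limma). Tnnc2 (ENSMUSG00000017300.9), the fast troponin C that senses calcium, was at 0, 3.77, 4.56 and 4.23 in wild type and at 80.2, 36.9, 61.1 and 71.8 in clone 2, a difference of 4.15 (SE 0.52, adjusted p = 0.00021 by limma). Tnnc1, the slow and cardiac troponin C, was at 0.410, 3.55, 4.88 and 5.96 against 47.7, 21.7, 27.7 and 46.3, a difference of 3.12. Both troponin C genes therefore rose together and neither had overlapping groups. Tnni2, the fast inhibitory troponin, was at 0 to 0.211 in wild type and 4.15 to 7.72 in clone 2. Myl1, the fast essential light chain, was called higher by 1.54, but 24.2 in 1 clone 2 library (MyoD alone, replicate 2) lay below the highest wild type value of 25.5. Tnni2 and Myl1 were named after their values were seen, as were Mymx, Trim54, Chrng, Col1a1, Phka1 and the genes given only with unnamed transcripts placed, other than Ttn.

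The actins of the sarcomere moved apart. Acta1, the skeletal muscle actin, was at 11.6, 15.6, 18.7 and 27.6 scaled TPM in wild type and at 82.0, 38.1, 50.6 and 78.8 in clone 2, a rise of 1.71 (SE 0.30, adjusted p = 0.0014 by limma). Actc1, the cardiac actin that early skeletal muscle also makes, was at 23.4, 26.4, 17.8 and 15.8 in wild type and at 1.296, 4.15, 0 and 5.83 in clone 2, and fell by 2.84 (SE 0.58, adjusted p = 0.0031 by limma). Both pairs of groups were clear of each other. The 2 genes have transcripts of 1446 and 1473 nt, so their share within a library is nearly free of scaling and of length. Acta1 made up 33.1, 37.1, 51.2 and 63.6% of the sum of both in wild type and 98.5, 90.2, 100 and 93.1% in clone 2. For the troponin C pair (700 and 721 nt) the share of Tnnc2 was 0, 51.5, 48.4 and 41.5% in wild type and 62.7, 63.0, 68.8 and 60.8% in clone 2. These shares were computed after the values were seen and have no test.

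The tropomyosin genes Tpm3 and Tpm1, whose products lie along actin filaments in muscle and in other cells, also went opposite ways. Tpm3 was at 0.706 to 3.09 scaled TPM in wild type and 36.2 to 76.8 in clone 2. Tpm1 was at 608 to 934 in wild type and 245 to 281 in clone 2 and fell by 1.48, a direction that turned to 1.65 without scaling. Of 18 thin filament genes, 11 were tested, 5 were called higher and 3 lower, with a median of 0.89. Of 19 thick filament genes only 3 were tested, 2 were called higher and none lower at these settings.

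The 250 bases before the start of 5 of these genes are shown because they moved in opposite directions; they come from RefSeq on GRCm38.p6, are written 5′ to 3′ on the strand of the gene, and have E-boxes in capitals. The E-box searched was CANNTG, which reads the same on both strands and includes CAGCTG.

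Mylpf, chr7:127211358-127211607, plus strand: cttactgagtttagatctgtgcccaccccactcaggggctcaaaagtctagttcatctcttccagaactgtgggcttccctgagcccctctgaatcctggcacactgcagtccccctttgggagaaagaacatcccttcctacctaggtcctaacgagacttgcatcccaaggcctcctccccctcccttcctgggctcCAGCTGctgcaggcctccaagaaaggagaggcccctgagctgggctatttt
Tnnc2, chr2:164779735-164779984, minus strand: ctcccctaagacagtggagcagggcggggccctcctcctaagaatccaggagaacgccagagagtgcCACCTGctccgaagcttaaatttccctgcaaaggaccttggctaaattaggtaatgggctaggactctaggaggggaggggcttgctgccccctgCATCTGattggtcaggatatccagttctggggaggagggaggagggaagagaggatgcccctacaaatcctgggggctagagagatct
Acta1, chr8:123894776-123895025, minus strand: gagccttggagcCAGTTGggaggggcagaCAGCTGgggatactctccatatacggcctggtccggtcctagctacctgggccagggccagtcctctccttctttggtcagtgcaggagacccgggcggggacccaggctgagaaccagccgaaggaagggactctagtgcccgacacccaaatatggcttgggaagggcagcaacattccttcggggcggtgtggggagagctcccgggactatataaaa
Actc1, chr2:114052876-114053125, minus strand: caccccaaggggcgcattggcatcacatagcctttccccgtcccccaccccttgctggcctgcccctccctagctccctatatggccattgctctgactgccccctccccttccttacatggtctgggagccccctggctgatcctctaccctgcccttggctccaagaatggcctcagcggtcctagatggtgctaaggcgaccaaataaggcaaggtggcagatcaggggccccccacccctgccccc
Smyd1, chr6:71262282-71262531, minus strand: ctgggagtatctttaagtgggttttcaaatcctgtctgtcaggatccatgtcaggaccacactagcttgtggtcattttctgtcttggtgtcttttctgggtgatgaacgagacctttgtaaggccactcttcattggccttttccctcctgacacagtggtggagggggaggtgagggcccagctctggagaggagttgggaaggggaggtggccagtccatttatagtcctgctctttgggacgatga

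The window held 1 E-box for Mylpf, 2 for Tnnc2 and 2 for Acta1, and 0 for Actc1 and for Smyd1. Of 27025 such windows, 1 per gene, 66.0% held at least 1 E-box and 12.8% held CAGCTG. Of the 16 muscle genes called higher in clone 2, 12 had a promoter in the table and 12 of these held an E-box, 8 of them CAGCTG. Of the 17 called lower, 15 had one, 8 held an E-box and 3 held CAGCTG. Over all 150 muscle genes, 106 were matched, 83 held an E-box and 40 held CAGCTG. A match describes letters in this window and no more.

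Of 22 titin and Z-disc genes, 6 were tested, 2 were called higher and 2 lower, with a median of 0.27. Flnc, the filamin that links Z-discs to the membrane, was at 96.4, 96.6, 126 and 103 scaled TPM in wild type and at 5.75, 0.0523, 0.420 and 0 in clone 2. Ldb3, a PDZ and LIM protein of the Z-disc, was at 13.1, 13.1, 11.7 and 18.2 in wild type and at or near 0 in the clone 2 libraries. No pair of these groups overlapped, and Flnc fell by 5.89 (SE 0.58, adjusted p = 6.2e-05 by limma). Flnc was at 7.17 to 18.5 in clone 2 with unnamed transcripts placed and its difference was -2.85, and Ldb3 was at 40.7 to 77.5 in wild type and 4.20 to 13.7 in clone 2. Cryab, the small heat shock protein that protects desmin and titin, was in contrast 2.65 higher, at 81.5 to 105 in clone 2 against 9.24 to 22.1. Trim54, a ubiquitin ligase of the sarcomere, was listed at 0 in the wild type libraries and was at 1.41 to 7.01 in clone 2. In the dystrophin complex, which ties the cytoskeleton to the matrix, Dag1 (dystroglycan) was at 460, 349, 410 and 478 in wild type and at 13.1, 11.1, 9.30 and 17.2 in clone 2. Sgcd (delta-sarcoglycan) was at 20.5 to 54.8 against 1.02 to 1.99. Of 9 genes of the complex, 4 were tested, none was called higher and 3 were called lower, with a median of -3.14. Of 18 excitation-contraction genes, 4 were tested and 0 were called. Fewer converted cells and less RNA per converted cell cannot be told apart in such bulk libraries.

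Of the tested metabolic genes of muscle, more were called higher in clone 2 than lower. Ckm (muscle creatine kinase), which buffers ATP, was listed at 0 in 4 of 4 wild type libraries and stood at 3.65, 1.76, 2.00 and 1.60 scaled TPM in clone 2. Cox8b, the muscle form of a cytochrome oxidase subunit, was at 2.62, 1.08, 1.54 and 0.766 in wild type and at 11.8, 3.77, 10.9 and 12.6 in clone 2. Eno3, muscle enolase, was at 0.0414 to 2.93 against 11.1 to 30.3. With unnamed transcripts placed Eno3 was at 6.90 to 9.97 against 18.5 to 37.8, a difference of 1.62. These groups did not overlap for any of the 3 genes. Pfkm, muscle phosphofructokinase, ran against them at 29.5 to 45.8 in wild type and 10.3 to 17.4 in clone 2, a fall of 1.27 that turned to 1.72 without scaling. Of 17 genes 7 were tested, 4 were called higher and 1 lower, with a median of 1.66, beside 35.1% and 26.7% of all tested genes. Length-adjusted, 3 were higher and 1 lower, with a median of 0.75. With unnamed transcripts placed, 12 were tested, of which 8 were higher and 0 lower. Rapsn, which clusters acetylcholine receptors, was listed at 0 in wild type and was at 2.57 to 8.37 in clone 2, whereas Chrng, the fetal receptor subunit, overlapped at 3.59 to 16.7 and 3.17 to 6.66, and its difference of -0.80 turned to 1.91 without scaling.

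The difference between the lines fell with transcript length over most of the range, and that of the muscle genes went the same way. Over the 9168 tested genes the median log2 difference was 1.82 for transcripts of 731 to 1286 nt and -1.35 for those of 5919 nt or more, both among 10 classes of equal size, with a Spearman rho of -0.37 across genes. The shortest class, of 56 to 730 nt, had a median of 0.86. Among the 56 tested muscle genes rho was -0.73. Under 2000 nt, 13 of 18 muscle genes were called higher and 1 lower, where 52.9% of all genes of that length were higher and 14.6% lower. Over 4000 nt, 0 of 17 were called higher and 11 lower, where 15.6% and 41.7% of all genes were. The medians of muscle genes and of all genes were 1.97 and 1.25 under 2000 nt, and -2.83 and -0.84 over 4000 nt. With unnamed transcripts placed they were 1.92 and 1.37, and -0.92 and -0.80. These correlations are descriptions over genes that share the same 8 libraries. When the median deviation of 20 length classes was removed from each library, a step added after the data were seen, 26.2% of genes were higher and 27.9% lower (54.1% in all), and 10 muscle genes were higher and 16 lower. Tnnc2 kept a difference of 2.81, Tnnc1 of 1.77 and Mylpf of 1.51, while Acta1 fell to 0.44 and Tnni2 to 0.65, and Myl1 turned to -0.066. Ckm was then at 1.05 and Mymx at 0.014. Both were listed at 0 in every wild type library, which this step does not change, so neither value is a fold. On the lower side Actc1 stood at -4.10, Smyd1 at -3.91, Flnc at -4.30 and Dag1 at -3.75. Of 73 named genes with a call, 14 lost it in this form: Acta1, Acta2, Bst2, Cdkn1b, Gadd45a, Hes6, Map2, Mef2d, Myl1, Mymx, Myog, Pebp1, Tnni2 and Trim54. The part of length in any single gene's difference was not tested.

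**Figure D3:**
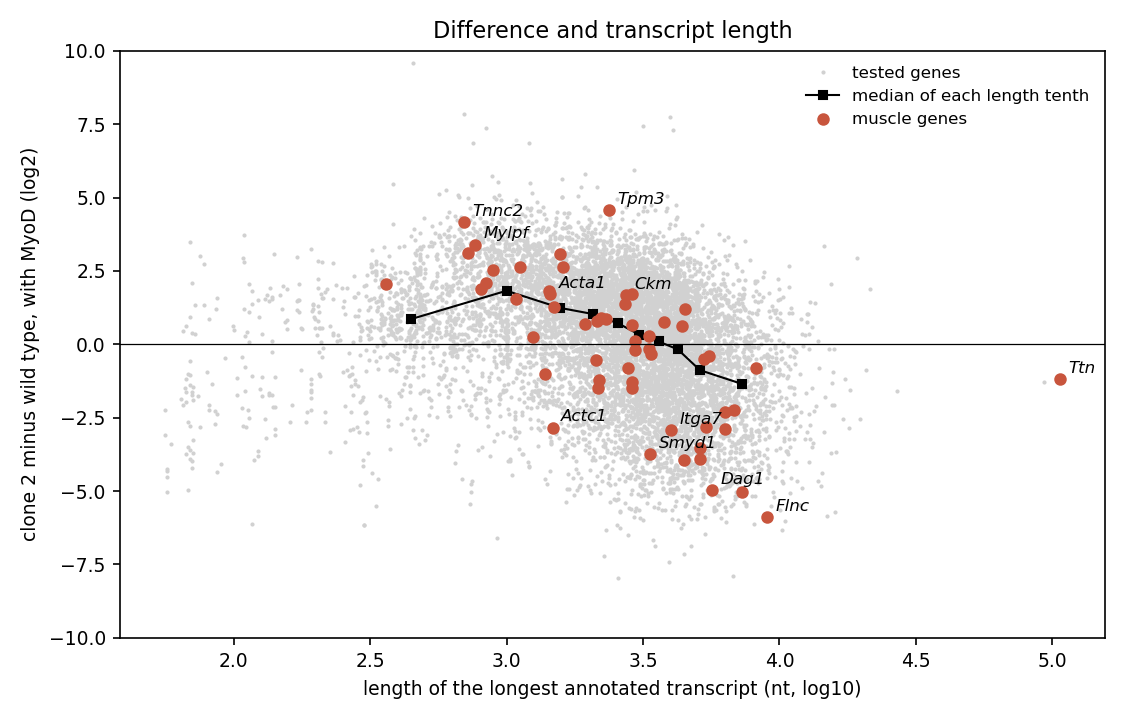
Log2 difference, clone 2 minus wild type with MyoD, against the log10 length of the longest annotated transcript for the 9168 tested genes (grey), with the 56 muscle genes in red and the median of each of 10 length classes as black squares. The medians fall from 1.82 in the second class to -1.35 in the last, and the short troponin and light chain genes lie high and the long scaffold genes low.

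Many large muscle genes were almost missing from the named transcripts and appeared only when transcripts without a gene name were given to the gene they overlapped. Ttn (titin), the molecular spring of the sarcomere, was at 0.0574, 5.20, 5.84 and 1.68 scaled TPM by named transcripts in wild type and at 0.198, 0.184, 0.208 and 1.68 in clone 2, and was not called. With unnamed transcripts placed it was at 122, 144, 117 and 154 in wild type and at 34.1, 24.1, 30.4 and 24.8 in clone 2, a difference of -2.21 (adjusted p = 2.1e-06 by limma) with no overlap. The same held in direction, by these values, for other long genes of the sarcomere and its calcium store. Neb (nebulin), the ruler of the thin filament, was at 17.2 to 28.7 against 9.74 to 14.5, Ryr1, the calcium release channel, at 15.4 to 23.3 against 4.74 to 10.0, and Atp2a1, the calcium pump, at 12.3 to 34.0 against 2.20 to 6.09. Embryonic myosin Myh3, at 0 by named transcripts in the 8 libraries, was at 1.78 to 8.70 and 3.46 to 8.02 with overlap. Tnnt1, slow troponin T, was at 0 to 3.94 in wild type and 12.2 to 23.9 in clone 2, and Tnnt2, the cardiac form that embryonic muscle also makes, at 1.73 to 12.3 against 19.5 to 39.1. Des (desmin) was at 0 to 3.17 and 3.09 to 11.9. With these transcripts placed, 100 muscle genes were tested, of which 29 were higher and 24 lower, beside 30.9% and 27.3% (58.2% in all) of 12573 genes. Of the 73 named genes with a call, 4 lost it in this form: Cdkn1b, Gbp3, Pfkm and Tpm1.

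Which line had more muscle genes present changed with the measure: over 7 measures the median was higher in clone 2 in 5, equal in 1 and lower in 1. At 1 scaled TPM or more, with all 24 libraries scaled together, wild type libraries with MyoD had 33, 40, 44 or 47 of the 150 genes (median 42) and those of clone 2 had 43, 46, 50 or 53 (median 48). The groups overlapped, and over all genes the same libraries had 7295 to 8154 in wild type and 8087 to 8264 in clone 2. When an equal number of top genes, 7295, was taken from each library, the medians were 41.5 in wild type and 38 in clone 2. At 5 scaled TPM both were 23, with 3588 to 3667 of all genes in wild type and 4239 to 4316 in clone 2. With unnamed transcripts placed the medians were 78 (77 to 85) and 95 (88 to 99), without overlap, and the counts of all genes did not overlap either, at 11135 to 11915 and 11923 to 12126. In that form with equal numbers of top genes they were 76.5 (74 to 84) and 89.5 (83 to 92). Without MyoD the medians at 1 scaled TPM were 20.5 in wild type and 23.5 in clone 2. Clone 1 with MyoD had 17 to 35.

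The lists did not fill evenly. Muscle energy genes at 1 scaled TPM numbered 1 to 4 of 17 in wild type and 8 to 11 in clone 2, and 1 to 4 against 6 to 8 among equal numbers of top genes. Thin filament genes numbered 4 to 9 of 18 in wild type and 9 to 11 in clone 2, so that the ranges met at 9. Myogenic regulators ran the other way, with 8 to 10 of 21 in wild type and 4 to 7 in clone 2, although with unnamed transcripts placed they numbered 10 to 12 and 11 to 13. In the other 6 lists the ranges of both lines overlapped.

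**Figure D4:**
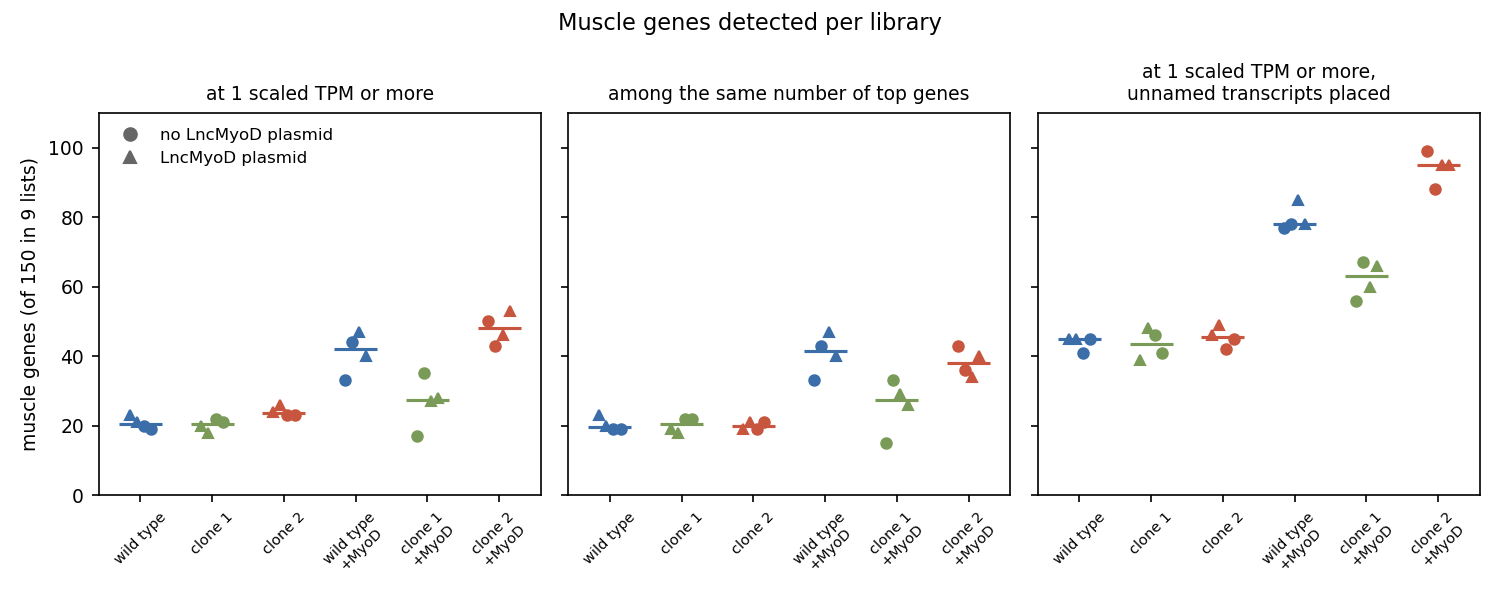
Number of the 150 muscle genes present in each of the 24 libraries (circles, no plasmid; triangles, plasmid; bars, medians of 4), at 1 scaled TPM or more, among equal numbers of top genes and with unnamed transcripts placed. Wild type and clone 2 with MyoD lie side by side at medians of 42 and 48 on the left, 41.5 and 38 in the middle and 78 and 95 on the right, and clone 1 lies lower.

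Because the lines also differed before MyoD, the difference between them with MyoD was set against that without MyoD, in 1 limma fit of 16 libraries with a line by MyoD term. Of 11879 genes tested, the difference was larger toward clone 2 for 288 (2.42%) and toward wild type for 360 (3.03%), together 5.46%. The 360 fell to 236 or 199 without replicate 1 or 2 of untreated clone 2 and to 214 or 209 without replicate 1 or 2 of clone 2 with plasmid alone. Of the 150 listed muscle genes, not all of which were tested, 9 were called toward clone 2 and 6 toward wild type. The 9 were Tnnc2, Mylpf, Tnnc1, Tnni2, Cox8b, Trim54, Mymx, Ckm and Rapsn, and the 6 were Smyd1, Itga7, Actc1, Ldb3, Dag1 and Phka1, the kinase subunit that drives glycogen breakdown. Of the 9, 5 (Ckm, Mymx, Rapsn, Tnni2 and Trim54) were under 1 scaled TPM in every wild type library with MyoD. The limit given above for genes that pass the filter through clone 2 alone holds for them here and in the forms below. The 9 fell to 5 when replicate 1 of clone 2 with MyoD, or either replicate of clone 2 with MyoD and plasmid, was left out. Mylpf and Tnnc2 were at 0 in the 8 libraries without MyoD, and the difference of differences was 3.47 (SE 0.39, adjusted p = 0.00021 by limma) for Mylpf and 4.24 (SE 0.63, adjusted p = 0.0014 by limma) for Tnnc2. For Smyd1, also at 0 in those libraries, it was -3.78 (SE 0.50, adjusted p = 0.00074 by limma). Myog reached 1.34 with an adjusted p of 0.052 by limma and Acta1 0.83 with 0.28, so neither was called. Nor was the difference of differences called for Tcf12 (-2.18), Mef2d (-1.28), Flnc (-1.19), Kirrel (-0.96), Sgcd (-0.76) or Pfkm (-0.65). The same held for Myl1 (1.61), Eno3 (1.17), Tpm1 (0.52), Tpm3 (0.44), Ehd2 (0.21) and Cryab (0.20). For these genes the difference with MyoD was not shown to go beyond that without MyoD. These differences followed length too, with a Spearman rho of -0.35 across genes. After removal of the length medians 7 muscle genes were called toward clone 2, among them Tnnc2, Mylpf, Tnnc1, Tnni2 and Ckm, and 3 toward wild type, which were Smyd1, Actc1 and Itga7. With unnamed transcripts placed, 12 were called toward clone 2, among them Tnnc2, Mylpf, Ckm and also Myog, and 4 toward wild type, which were Dag1, Actc1, Atp2a1 and Neb. In that form Tnnc1 (1.34, adjusted p = 0.10 by limma), Trim54 (1.65, 0.11), Rapsn (0.56, 0.70), Smyd1 (-2.14, 0.055) and Itga7 (-0.92, 0.50) were not called, Ldb3 turned to 1.03 and Phka1 to 0.51.

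**Figure D5:**
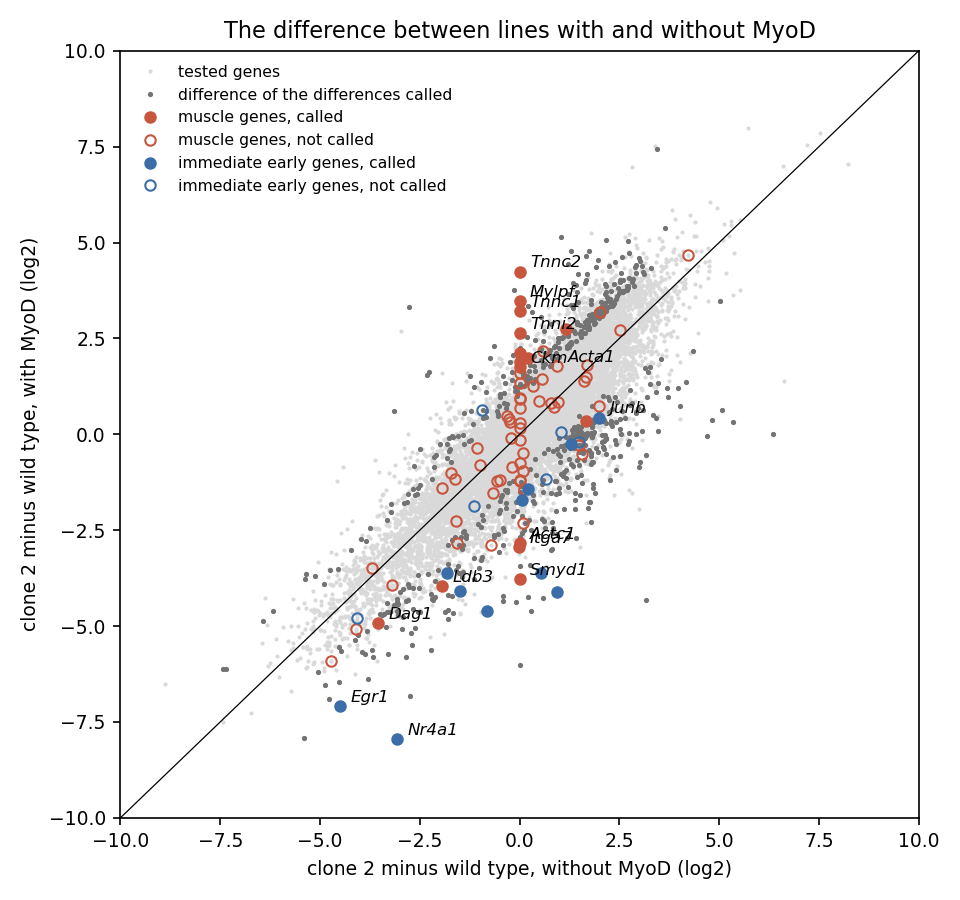
Log2 difference, clone 2 minus wild type, without MyoD (x axis) and with MyoD (y axis) from the fit of 16 libraries, for 11879 genes (grey), muscle genes (red) and immediate early genes (blue), filled where the difference of differences was called. Troponin and light chain genes sit above the diagonal at 0 on the x axis, and Smyd1, Actc1 and the called immediate early genes sit below the diagonal.

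The immediate early genes, which growth factor and stress signals switch on within minutes, were lower in clone 2 with MyoD. Of 17 genes, 17 were tested, 0 were called higher and 11 lower, with a median of -1.86. Nr4a1, an orphan nuclear receptor, was at 856, 788, 501 and 1211 scaled TPM in wild type and at 0.0968, 2.77, 7.497 and 1.93 in clone 2, a fall of 7.97. Egr1, a zinc finger factor, was at 1192 to 2142 against 9.11 to 11.4, and Fosl2, an AP-1 subunit, at 73.6 to 107 against 0.853 to 4.81. Each of these differed beyond the spread of its groups. The difference of differences was called toward wild type for 11 of the 17. In the scaling of that fit Nr4a1 stood at 85.4 to 117 in clone 2 without MyoD and at 0.105 to 8.37 with it, while wild type kept 562 to 1236 and 526 to 1263. Zfp36, which destabilises short-lived mRNAs, fell by 6.51, and the matricellular early gene Ccn1 by 4.28.

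Igf2, the growth factor that muscle cells secrete as they differentiate, was at 832, 818, 1129 and 1148 scaled TPM in wild type and at 10.9, 6.87, 5.50 and 6.49 in clone 2. It fell by 6.88 (SE 0.22, adjusted p = 5.3e-07 by limma) and the groups were far apart. Most called fibroblast and matrix genes were lower in clone 2. Of 35, 30 were tested, 17 were called lower and 4 higher, beside 26.7% and 35.1% of all tested genes. Their median was -2.19 and their median length 5068 nt, and length-adjusted 15 were lower and 5 higher. With unnamed transcripts placed, 35 were tested, of which 20 were lower and 5 higher. Dcn was higher in clone 2, at 272 to 397 against 99.9 to 130.5, and Col3a1 overlapped at 153 to 225 and 80.7 to 193. With unnamed transcripts placed Col1a2 overlapped too, at 259 to 406 in clone 2 and 240 to 262 in wild type. Dcn, Col3a1 and Col1a2 were named after their values were seen. Thbs1 (thrombospondin) was at 224 to 275 against 0.0008 to 7.51, and Fbln2 (fibulin) at 75.7 to 147 against 0.172 to 16.2. The short genes S100a4 and Timp1, a calcium-binding fibroblast marker and a protease inhibitor, were higher, at 985 to 1202 against 49.4 to 58.2 and at 22.5 to 29.3 against 0.784 to 2.78. Col1a1, the main fibroblast collagen, was at 317 to 409 in wild type and 179 to 233 in clone 2, below the size threshold. Its difference was -0.25 with unnamed transcripts placed, and it turned to 0.58 when length-adjusted and to 2.28 without scaling. Both lines thus still held collagen RNA beside muscle RNA.

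Inhibitors of MyoD were split. Id1, which binds E proteins and keeps them from MyoD, was at 5.28 to 8.83 scaled TPM in wild type and 65.3 to 74.8 in clone 2, a rise of 3.25. Notch1 and Notch2, receptors that hold progenitors undifferentiated, were at 33.5 to 39.6 and 38.8 to 84.5 in wild type and at 0.0024 to 0.656 and 0 to 0.0096 in clone 2. Once unnamed transcripts were placed the clone 2 values were 4.44 to 11.4 for Notch1 and 1.06 to 10.1 for Notch2, and the Notch1 difference went from -5.02 to -2.12. Bhlhe40, a repressor of the same factor family, fell by 3.30, and Hes6, which favours muscle differentiation, rose by 1.48 (0.40 when length-adjusted, not called). Of 11 tested genes of that list 3 were higher and 5 lower. Cell cycle exit genes were called higher in 6 of 10 and lower in 2, beside 35.1% and 26.7% of all tested genes. Length-adjusted, 3 of them were higher and 2 lower, and their median went from 1.78 to 0.37. With unnamed transcripts placed, 12 were tested, of which 5 were higher and 1 lower. Cdkn2c, an inhibitor of cyclin D kinases, rose by 2.31 and Gadd45a, a damage response gene, by 2.41, and Btg1, an antiproliferative factor, was listed at 0 in wild type and was at 10.8 to 15.8 in clone 2. Ccnd3, the cyclin D that differentiating myotubes keep, fell by 1.83 and the inhibitor Cdkn1b by 1.26, directions that turned to 1.27 and 1.60 without scaling. Of 33 cell cycle genes 18 were tested, of which 5 were higher, such as Pcna by 4.16 and Cdc20 by 2.90, and 4 lower. Pcna and Cdc20 were under 1 scaled TPM in every wild type library. They passed the filter through clone 2 alone and had to differ. When unnamed transcripts were placed 33 of the list were tested, of which 6 were higher and 12 lower, and Pcna stood at 1.63 and Cdc20 at 1.72. Mcm7 and Aurkb fell by 2.73 and 2.21, which turned to 0.17 and 0.50 without scaling.

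Genes of other cell types were measured in the same way. The summed level of 10 heart markers was 0 to 1.60 scaled TPM in wild type and 2.86 to 6.76 in clone 2. With unnamed transcripts placed the heart sums were 4.67 to 9.99 and 8.03 to 14.3, and the ranges overlapped. The sum of 8 adipocyte markers was 2.56 to 8.43 and 15.3 to 19.4, and that of 10 cartilage and bone markers 299.5 to 426 and 36.8 to 47.8. The last was nearly all Sox9, the cartilage regulator, at 265 to 375 and 30.8 to 39.4. That sum turned round with unnamed transcripts placed, to 275 to 364 in wild type and 390 to 644 in clone 2. Spp1 (osteopontin), listed at 0 by named transcripts, was then at 5.36 to 18.6 and 337 to 582. Runx2 and Alpl of bone fell by 3.13 and 2.78, while Bglap (osteocalcin) was called higher, at 2.21 to 4.88 in clone 2 against 0 to 0.986. Spp1 and Bglap were named after their values were seen. Sums of macrophage, endothelium and epithelium markers stayed at or under 3.23 in the 8 libraries and neuron markers at or under 9.58, with Map2 lower by 2.12. The sums with unnamed transcripts placed reached 11.6 for endothelium, in a wild type library, and 25.3 for neuron markers, also in wild type. In the smooth muscle list Acta2 rose by 1.56 and Smtn fell by 4.72. In the interferon list Bst2 rose by 2.70 and Ifi44 fell by 2.71, while Gbp3 was listed at 0 in wild type and was at 1.502 to 8.22 in clone 2. Gbp3 with unnamed transcripts placed was at 0 to 4.53 and 1.90 to 10.2, with overlap, and was not called. The part of these cell types or responses in the muscle results was not tested.

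Genes that nearly every cell uses differed by as much as the muscle genes did. Of 19 tested ubiquitous genes 8 were called higher and 5 lower. Polr2a, the large subunit of RNA polymerase II, was at 414, 397, 406 and 442 scaled TPM in wild type and at 0.0760, 0.0111, 7.18 and 0.0254 in clone 2, and Ywhaz, a 14-3-3 protein, was at 2747 to 3984 against 90.7 to 111. Pgk1, a glycolytic enzyme, was at 0.0575 to 12.1 against 55.8 to 87.0. Leaving out predicted, ribosomal protein, histone, mitochondrial and small RNA genes, the 6 largest rises among genes above 0 in the 8 libraries with clear groups and a mean of at least 5 scaled TPM in the higher one were Sod1 (7.75), Hspa8 (7.44), Cbx3 (5.92), Pebp1 (5.14), Uqcrb (5.12) and Ube2n (5.04), and the 6 largest falls were Nr4a1, Polr2a, Egr1, Igf2, the noncoding AY036118 (-6.59) of the ribosomal repeat region and Zfp36. Replicates of wild type differed widely for Pebp1 (0.0168, 37.9, 37.1 and 0.0246) and Uqcrb (10.7, 0.194, 6.20 and 0.145), so the size of these rises is uncertain. Cbx3 and Ube2n were under 1 scaled TPM in every wild type library. They passed the filter through clone 2 alone and had to differ. With unnamed transcripts placed, Hspa8 moved to 2.71, Polr2a to -4.77 and Sod1 to 7.12. In that form Cbx3 was at 5.24, Uqcrb at 3.91, Pebp1 at 3.29 and Ube2n at 3.29. The part of transcript assembly in these differences was not tested.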

How the data were processed

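RNA was made into libraries with SMART-Seq v4 and transposase tagmentation, which keeps no strand, and sequenced as paired reads of 100 bases, per the labels' protocols. StringTie 1.3.3, SAMtools 1.3, HISAT2 2.1.0, Trimmomatic 0.36 and bcl2fastq 2.19 are listed, without their roles, per the submitters' processing notes. Transcripts were assembled with StringTie 2.1.2 along GENCODE vM21 on mm10, per the file headers. The deposited values are other than a plain column: the authors' TPM stands in a text field of each assembled transcript, with no counts, so count tests were not possible, and the aligned gigabases come from the ratio of coverage to FPKM and those on transcripts from coverage times length. The members, gene lists and tests were chosen with earlier results of these data known.

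TPM was summed by reference gene, divided by a median-of-ratios factor over 7719 genes above 0 in the 8 libraries, and compared as log2(scaled TPM + 1) with limma 3.58.1 in R 4.3.3 (trend, line and plasmid as terms, 5 residual degrees of freedom; 11 for the fit of 16 libraries). Differences on this scale understate the change of low genes. Genes needed 1 scaled TPM in 4 libraries. A gene under that level in every library of 1 line passed through the other line alone and had to differ. Among named genes outside the muscle lists this held for Pcna, Cdc20, Btg1, Cbx3, Ube2n, Gbp3, Bglap, Notch1, Notch2 and Alpl. Calls needed a Benjamini-Hochberg adjusted p under 0.05 and a log2 difference of at least 1. Unnamed transcripts held 21.8 to 72.6% of TPM in wild type and 17.5 to 23.4% in clone 2. As an alternative each went to the same-strand gene whose exons covered 50% or more of it. Transcript lengths came from the annotation, and promoters from RefSeq. On simulated data the comparison of 8 libraries recovered 50.0, 55.2 and 67.2% of changes of 1.5, 2 and 3 on the log2 scale among 7543 genes, with 6 false calls. Only 66, 67 and 67 genes were changed there, in both directions and without a length trend. In the data 61.8% of genes were called, so the number of false calls does not carry over. Named were Myod1, Myog, Mef2c, Mymk, Acta1, Mylpf, Tnnc2, Ckm, Ttn and Igf2, and per list at most 3 called genes, by size of difference, plus at most 2 that went against most of the list. Over all genes up to 6 rises and 6 falls were named. Named list members had groups that did not overlap and a mean of at least 5 scaled TPM in the higher group, and others are said to be named after their values were seen. A gene that this rule would name is not reported here. Alternatives changed the scaling, ranks, pseudocount, filter, unnamed transcripts, model terms and libraries.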

Additional observations from a re-analysis of the deposited data

Results flagged for a closer look

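The results below had a difference between clone 2 and wild type that itself differed between libraries with and without MyoD, by the line by MyoD term of the limma fit over 16 libraries (adjusted p under 0.05). Values are differences of log2(scaled TPM + 1), with MyoD minus without. Toward clone 2 they were Tnnc2 4.24, Mylpf 3.47, Tnnc1 3.20, Tnni2 2.65, Cox8b 2.13, Trim54 1.89, Mymx 1.79, Ckm 1.75 and Rapsn 1.58. Ckm, Mymx, Trim54 and Rapsn were listed at 0 in the wild type libraries with MyoD, so their values are no folds. Tnni2 was under 1 scaled TPM in those libraries. Toward wild type among muscle genes they were Smyd1 -3.78, Itga7 -2.93, Actc1 -2.83, Ldb3 -2.02, Myod1 -1.66, Dag1 -1.37 and Phka1 -1.32. Toward wild type among other genes they were Nr4a1 -4.89, Igf2 -4.09, Ccn1 -3.80, Thbs1 -3.42, Egr1 -2.60, Polr2a -2.54, Bhlhe40 -2.30, Notch1 -2.13, Col1a1 -2.06 and Zfp36 -1.94. Groups of 2 libraries are too small for a check of single outlying libraries.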

How the results depend on the processing

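Without scaling, 6729 genes were higher and 570 lower, the difference of differences was called for 91 genes toward clone 2 and 1119 toward wild type, and Aurkb (0.50), Ccnd3 (1.27), Cdkn1b (1.60), Mcm7 (0.17), Mymk (1.79), Pfkm (1.72), Tpm1 (1.65), Col1a1 (2.28) and Chrng (1.91) turned higher, Chrng also as a difference of differences (1.91). With genes above 0 in every library, 1940 were higher, 19 muscle genes were called, and 206 differences of differences went toward wild type. With no filter these were 181 and 187, by ranks 173 toward clone 2, and length-adjusted 188 and 196. Length adjustment turned Myl1 to -0.066, and 4056 of 5662 calls (71.6%) were shared with it. It also turned Col1a1 to 0.58 and Ttn to 0.42, both of which were without a call before it. With unnamed transcripts placed, 53 muscle genes were called. Differences of differences turned for Igf2 (20.9 percentile points) and Myod1 (60.7) by ranks, for Ldb3 (1.03), Phka1 (0.51) and Polr2a (0.086) with unnamed transcripts placed, and for Myod1 (0.27) at a pseudocount of 0.1; the cause was not tested. Present muscle genes had medians in wild type and clone 2 of 23 and 23 at 5 scaled TPM, 69 and 80.5 at any value, 35.5 and 64.5 unscaled, 78 and 95 with unnamed transcripts placed and 76.5 and 89.5 by ranks in that form, and 38 in clone 2 by ranks. Leaving out 1 library at a time gave 2380 to 3183 genes higher, 2020 to 2245 lower, 26 to 33 muscle genes called, 192 to 324 and 199 to 338 differences of differences, and 40 to 44 and 46 to 50 present muscle genes. Replicate numbers did not pair the samples (correlations of -0.026 to 0.011), and the replicate block gave 3223 higher and 2457 lower, 33 muscle genes, and 266 and 339 differences of differences. Without read counts, counting error was not measured, and a gene listed at 0 is not shown to be absent.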
